A study of Mus musculus with 15 samples.

Results

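The peptide hormone genes of the islet, Ins2, Iapp, Gcg, Sst, Ppy, Pyy, Ghrl and Gast, were followed through 15 RNA-seq libraries of sorted mouse islet cells. They were taken by symbol from gene tables that list 23699 entries each, and all 8 were found, 7 of them with a value in every library and Ins2 in 12 of 15. The study sorted red fluorescent protein (RFP)-positive islet cells of Foxo1, Foxo3 and Foxo4 triple knockout mice and their controls by aldefluor, a fluorescent substrate that is trapped in cells with aldehyde dehydrogenase (ALDH) activity, to compare failing (ALDH+) with healthy (ALDH-) β cells. There were 3 control ALDH-, 2 control ALDH+, 5 knockout ALDH- and 5 knockout ALDH+ libraries. All mice were of a background strain given as mixed 129JC57BL/6, and the labels call the controls heterozygous for the 3 Foxo genes where the study's methods describe animals with unmodified Foxo genes.

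The cre transgene that deleted Foxo also switched on RFP, so the cre driver decided which cells could enter the sort. Rip-cre, driven by an insulin promoter, marked cells that made or had made insulin, and its 9 libraries came from mice that were 6 months old. Pdx-cre acts in pancreatic precursors, so RFP marked all their descendants, other islet cells, acinar and duct cells included, and the age of the mice behind its 6 libraries is not given in the sources used here. Within each group the last libraries were the Pdx-cre ones, namely replicate 3 of control ALDH-, replicate 2 of control ALDH+, and replicates 4 and 5 of both knockout groups. The labels call every library sorted β cells. Islets of many animals were collected per genotype, the labels do not say which libraries come from separate animals, and p-values therefore measure the spread between these libraries, which may be partly technical.

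Islet hormones are made as longer precursors, cut by prohormone convertases, packed into dense core granules and released by exocytosis. Most islet cells of the adult mouse commit to a single main hormone: insulin in β cells, glucagon in α cells, somatostatin in δ cells, pancreatic polypeptide in PP cells and ghrelin in ε cells. β cells release amylin, the product of Iapp, together with insulin, whereas peptide YY is made in several islet cell types and in gut endocrine cells, and gastrin is a stomach hormone that is also made in the fetal pancreas. In β cells that fail in diabetes, insulin production falls and genes of other states of the endocrine lineage can appear, and this makes the hormone genes a first readout of what a sorted population holds.

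The fragments summed over genes were between 7492220 and 10058043 per library, with a median of 9281983. Aldh1a3 was at 22.1 to 76.9 FPKM, the unit of the tables (fragments scaled to transcript length and to the depth of the library), in the ALDH+ libraries and at 0.490 to 4.09 FPKM in the ALDH- libraries. Foxo1 was at 12.0 to 20.1 FPKM in control and at 0.0925 to 4.25 FPKM in knockout libraries. The level of Foxo3 did not separate the genotypes, at 12.7 to 23.0 FPKM in control and 9.78 to 30.6 FPKM in knockout libraries. Foxo4 was low in both, at 0 to 1.34 FPKM in control and 0 to 0.0669 FPKM in knockout libraries. Of the non-hormone β cell markers, Mafa was low in every library (0.434 to 13.9 FPKM), while G6pc2 and Ucn3 were at 313 to 1878 and 69.9 to 795 FPKM. Control ALDH+ replicate 1 and control ALDH- replicate 3 each changed calls when left out.

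Insulin transcripts took up so many fragments that the quantifier gave up on them. Ins1 on chromosome 19 carried the status HIDATA (too many fragments at the locus) in all 15 libraries and has no FPKM value in any of them. Ins2 on chromosome 7 (149864560 to 149865613 in mm9) carried it in 3 libraries, all of them Rip-cre ALDH-: control replicates 1 and 2 and knockout replicate 2. In the other ALDH- libraries Ins2 was at 319701 FPKM in control replicate 3, and at 357492, 360501, 297056 and 317706 FPKM in knockout replicates 1, 3, 4 and 5. In ALDH+ cells it was at 328623 and 272317 FPKM in the control and at 339837, 356237, 318033, 304668 and 246963 FPKM in the knockout libraries. The quantified values thus spanned less than 1 unit on the log2 scale, and the ALDH+ libraries lay within or below the range of the quantified ALDH- ones. The status HIDATA is set by fragments, which grow with the depth of a library, so it can cut high values from this span.

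With the 3 unquantified libraries tied at the top rank, the mean rank of Ins2 was 5.71 in the 7 ALDH+ and 10 in the 8 ALDH- libraries, a difference of -4.29 (two-sided exact permutation test of the ALDH labels within genotype and cre driver, p = 0.00417, smallest possible 0.00139). That difference rested on the unquantified libraries. Their top rank was assumed, since the status depends on fragments and so on depth as well as on level. Without them it was -1.89 ranks (exact permutation p = 0.283), and the mean log2 FPKM was 18.23 in 7 ALDH+ and 18.33 in 5 ALDH- libraries (difference -0.10, exact permutation p = 0.225). The highest Ins2 value that was given rested on 976489 fragments. Placing each unquantified library just at that number gave its lowest possible FPKM. It was 340714 for control ALDH- replicate 1, 323536 for replicate 2 and 389347 for knockout ALDH- replicate 2. Of the quantified libraries 3, 5 and 0 lay above these values. With them the difference in mean rank was -3.21 (exact permutation p = 0.0167, a setting added after the data were seen).

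Iapp on chromosome 6 (142246944 to 142252339) was the highest hormone gene with a value in every library. It was at 105955, 125094 and 81976 FPKM in the control ALDH- libraries and at 102020, 87148, 113454, 92729 and 114338 FPKM in the knockout ALDH- libraries. In ALDH+ cells it was at 33196 and 69597 FPKM in the control and at 97371, 97293, 42521, 87332 and 90302 FPKM in the knockout. Control ALDH+ replicate 1 and knockout ALDH+ replicate 3, both Rip-cre, stood below all other libraries, control ALDH+ replicate 2 was next and also below every ALDH- library, and the other 4 ALDH+ libraries were within the range of ALDH- cells. Iapp was lower in ALDH+ cells by 0.75 on the log2 scale, averaged over genotypes, with an SE of 0.40 (limma adjusted p = 0.311), and higher in Pdx-cre than in Rip-cre libraries by 0.21 (SE 0.38, adjusted p = 0.787). Neither passed.

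Ins2 did not follow Iapp into the low libraries. The ratio of Ins2 to Iapp FPKM was between 2.73 and 3.91 in 10 of the 12 libraries with both values, and it was 9.9 in control ALDH+ replicate 1 and 7.48 in knockout ALDH+ replicate 3. The genes whose log2 levels tracked Iapp most closely over the 15 libraries were Ndufa11 (Pearson r = 0.972), Atp5e and Atp5l, subunits of respiratory complex I and of the ATP synthase. All points come from the same 15 libraries and share their scaling, so these coefficients describe likeness only.

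**Figure D1:**
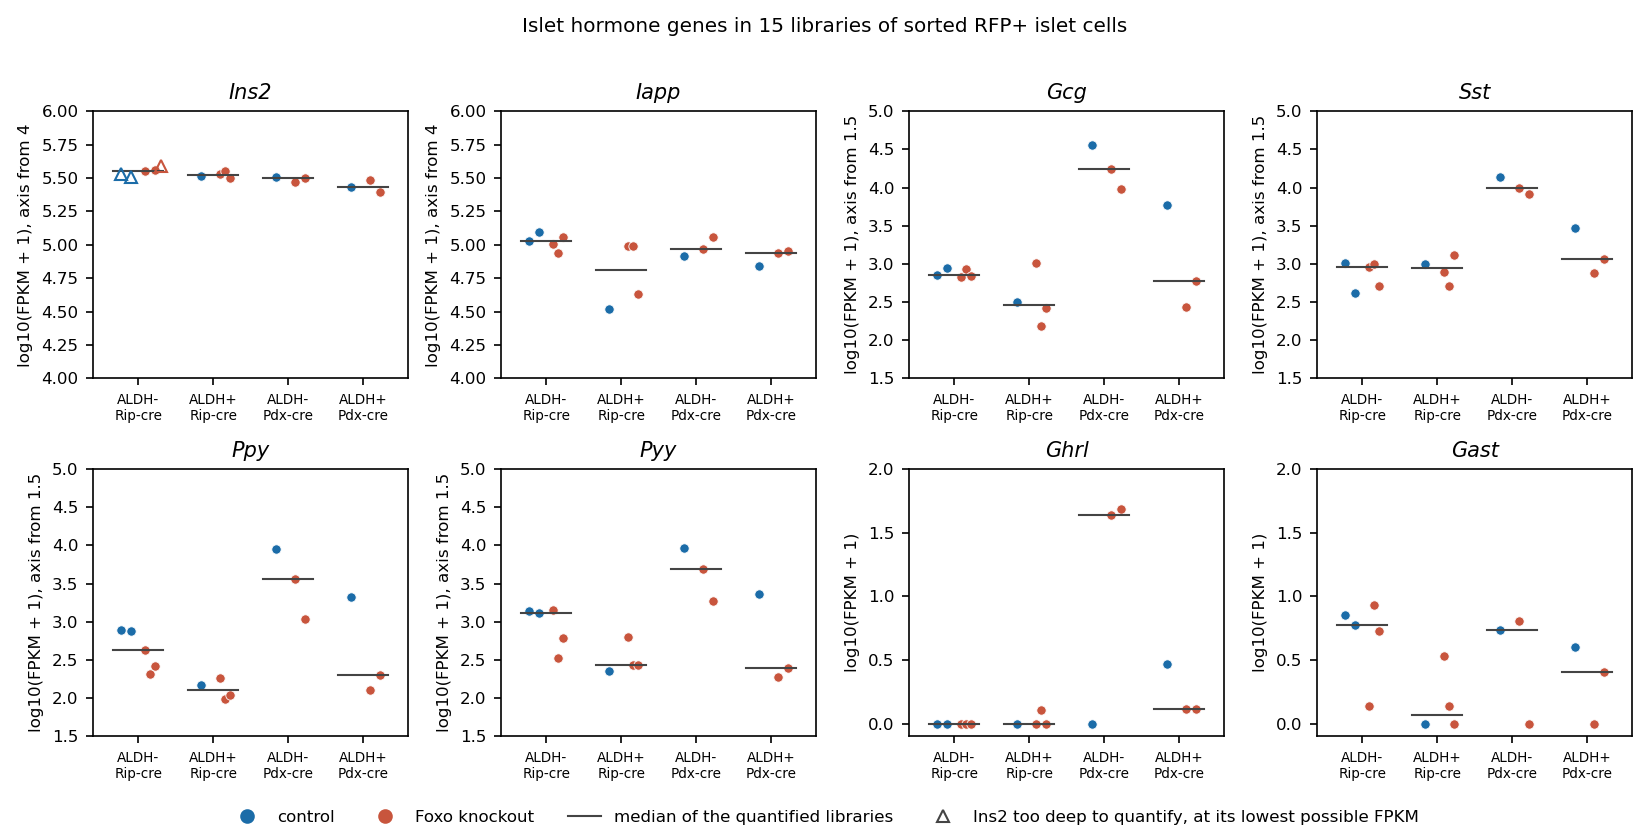
Level of the 8 hormone genes as log10(FPKM + 1), with 1 dot per library (blue control, red Foxo knockout), grouped by ALDH sort and cre driver, and lines at the median of the quantified libraries. Open triangles mark the 3 libraries in which Ins2 was too deep to quantify, at their lowest possible FPKM. Gcg and Sst were highest in the 3 Pdx-cre ALDH- libraries, Ppy and Pyy in these and the control Pdx-cre ALDH+ library, while the quantified Ins2 values spanned less than 1 log2 unit. The axes of the upper panels and of Ppy and Pyy do not start at 0.

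The hormones of the other endocrine cells were far below Iapp in Rip-cre libraries, and the highest of them, Gcg, reached 43.7% of the Iapp level in a Pdx-cre library. Gcg (chromosome 2, 62312586 to 62321710), which encodes proglucagon, was at 720.2 and 888 FPKM in control ALDH- replicates 1 and 2 and at 35838 FPKM in replicate 3, the Pdx-cre library. In knockout ALDH- cells it was at 667, 867 and 684 FPKM in the Rip-cre and at 17334 and 9533 FPKM in the Pdx-cre libraries. Among the ALDH+ libraries it was at 315 (Rip-cre) and 5822 FPKM (Pdx-cre) in the control, and at 1016, 154 and 260 FPKM (Rip-cre) and 268 and 598 FPKM (Pdx-cre) in the knockout. The 3 Pdx-cre ALDH- libraries and the control Pdx-cre ALDH+ library were thus above all others, and the 2 knockout Pdx-cre ALDH+ libraries lay within the Rip-cre range.

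Sst (chromosome 16, 23889666 to 23890930), the somatostatin gene, was highest in the same 4 libraries, in the same order. It was at 1036, 412 and 13631 FPKM in control ALDH- replicates 1 to 3, and at 909, 984, 510, 9792 and 8245 FPKM in knockout ALDH- replicates 1 to 5. In ALDH+ cells it was at 1007 and 2981 FPKM in the control and at 774, 506, 1297, 752 and 1156 FPKM in the knockout libraries. In Rip-cre cells the ALDH- and ALDH+ libraries overlapped.

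Ppy and Pyy are neighbours on chromosome 11 (101961244 to 101962614 and 101967990 to 101969090), 5376 bases apart, and encode related peptides, pancreatic polypeptide and peptide YY. Ppy was at 777, 761 and 8978 FPKM in the control ALDH- libraries, against 149 and 2132 FPKM in control ALDH+ replicates 1 and 2. In the knockout it was at 423, 206, 259, 3608 and 1098 FPKM in ALDH- and at 183, 97.4, 108, 127 and 199 FPKM in ALDH+ cells. The highest knockout ALDH+ value of Ppy, 199 FPKM in replicate 5, was just below the lowest knockout ALDH- value, 206 FPKM in replicate 2. Their confidence bounds overlapped (182 to 215 and 189 to 223 FPKM). The share of all genes that separate the knockout groups in this way was not counted.

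Pyy was at 1398, 1317 and 9206 FPKM in control ALDH- cells and at 226 and 2301 FPKM in control ALDH+ cells. In the knockout it was at 1434, 333, 613, 4841 and 1890 FPKM in ALDH- and at 633, 274, 269, 191 and 244 FPKM in ALDH+ cells. Here knockout ALDH+ replicate 1 overlapped with ALDH- replicates 2 and 3, and the other 4 ALDH+ libraries were below all ALDH- ones. Pyy was above Ppy in 15 of 15 libraries, with a ratio between 1.03 in control ALDH- replicate 3 and 3.46 in knockout ALDH+ replicate 1.

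Since these genes moved together across libraries, the sequence before their starts is shown, with that of Iapp, which did not follow them. Each line gives 250 bases before the RefSeq start on the gene's strand, in GRCm38.p6, a later build than the mm9 of the gene tables, and Ins2 is not shown. Capitals mark every match, on either strand, to 4 short motifs. The cAMP response element was searched as TGACGTCA. The forkhead site, of the class that Foxo proteins bind, was searched as GTAAACA. The core that homeodomain factors bind was searched as TAAT, and the TATA box was searched as TATAA.
Gcg (chr2:62483654-62483903, minus strand): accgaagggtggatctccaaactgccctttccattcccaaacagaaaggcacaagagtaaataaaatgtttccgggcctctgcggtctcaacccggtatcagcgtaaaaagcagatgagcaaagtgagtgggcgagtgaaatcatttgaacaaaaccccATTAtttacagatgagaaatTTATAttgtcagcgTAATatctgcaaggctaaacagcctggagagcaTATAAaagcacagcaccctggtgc
Sst (chr16:23890845-23891094, minus strand): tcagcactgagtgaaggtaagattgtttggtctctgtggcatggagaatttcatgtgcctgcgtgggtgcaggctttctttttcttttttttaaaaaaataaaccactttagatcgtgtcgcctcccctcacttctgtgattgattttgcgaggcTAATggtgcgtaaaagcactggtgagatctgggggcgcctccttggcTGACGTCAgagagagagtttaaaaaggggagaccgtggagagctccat
Ppy (chr11:102101320-102101569, minus strand): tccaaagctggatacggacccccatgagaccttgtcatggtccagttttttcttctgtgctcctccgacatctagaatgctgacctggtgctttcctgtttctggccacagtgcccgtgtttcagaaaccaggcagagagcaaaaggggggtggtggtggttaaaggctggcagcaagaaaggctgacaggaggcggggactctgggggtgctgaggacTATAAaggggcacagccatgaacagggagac
Pyy (chr11:102107833-102108082, minus strand): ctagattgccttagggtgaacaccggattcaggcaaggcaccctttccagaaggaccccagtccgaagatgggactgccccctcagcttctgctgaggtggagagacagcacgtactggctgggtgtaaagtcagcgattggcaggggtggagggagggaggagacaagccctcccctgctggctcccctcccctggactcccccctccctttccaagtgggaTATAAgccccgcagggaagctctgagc
Iapp (chr6:142298175-142298424, plus strand): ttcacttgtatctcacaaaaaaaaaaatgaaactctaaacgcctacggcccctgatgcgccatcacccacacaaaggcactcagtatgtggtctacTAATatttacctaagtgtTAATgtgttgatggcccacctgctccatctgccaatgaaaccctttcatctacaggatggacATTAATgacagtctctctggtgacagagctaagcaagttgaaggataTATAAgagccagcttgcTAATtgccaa

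The Sst window held the cAMP response element 48 to 41 bases before the start, a motif found in 1.55% of the 32851 promoter windows of the same length. The forkhead site was in none of the 5 windows and in 3.17% of all windows. The homeodomain core was in the Gcg, Sst and Iapp windows (54.9% of all), with 5 matches before Iapp, a pair of which overlap. The TATA box was in 4 of the 5 windows, all but that of Sst (22.8% of all), and Ppy and Pyy held no other of the 4 motifs.

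ALDH+ cells had less Ppy and Pyy than ALDH- cells. Averaged over genotypes, Ppy fell by 2.10 on the log2 scale (SE 0.45, limma adjusted p = 0.0131), or 4.27-fold, and Pyy fell by 2.07 (SE 0.53, adjusted p = 0.0298), or 4.21-fold. The difference was -2.13 for Gcg (SE 0.66, adjusted p = 0.0671), -0.87 for Sst (SE 0.52, adjusted p = 0.373) and -1.32 for Gast (SE 0.53, adjusted p = 0.163), and none of these passed. So 2 of the 7 hormone genes tested passed in this comparison, in which 5.98% of the 11253 genes tested did. Leaving out control ALDH+ replicate 1, which stood low for Iapp too, took the number of calls over all genes from 673 to 3, and Ppy was then lower by 1.62 (adjusted p = 0.194) and Pyy by 1.51 (adjusted p = 0.312). The call for Pyy was also lost without any of the 3 control ALDH- replicates (adjusted p = 0.0513 to 0.0956), and neither gene passed in a model without the cre driver (Ppy -1.90, adjusted p = 0.204).

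Within single genotypes none passed in the fit of all 15 libraries. In control cells 0 of 7 members passed (1.22% of all genes), with -2.04 for Ppy (adjusted p = 0.202), -2.11 for Pyy (0.268), -1.62 for Gcg (0.556) and -0.48 for Sst (0.877) by the same limma fit. When the 5 control libraries were fitted alone, 3 of 6 members passed beside 3.96% of all genes: Ppy (-2.29, adjusted p = 0.00653), Pyy (-2.38, adjusted p = 0.0092) and Gcg (-1.94, adjusted p = 0.0335). In knockout cells 0 of 7 passed (0.0178% of all genes), with -2.15 for Ppy (adjusted p = 0.152), -2.04 for Pyy (0.202), -2.64 for Gcg (0.191) and -1.26 for Sst (0.380). At an unadjusted p under 0.05 there were 1605 genes in control and 1472 in knockout cells. The test of the genotype by ALDH interaction called 0 of 7 members and 0% of all genes (476 genes at an unadjusted p under 0.05), and its value was -0.11 (SE 0.90) for Ppy and 0.07 for Pyy, the latter with a 95% confidence interval from -2.16 to 2.30.

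The transcripts of glucagon, somatostatin and pancreatic polypeptide were higher in Pdx-cre libraries. Gcg was higher in Pdx-cre than in Rip-cre libraries by 3.13 on the log2 scale (SE 0.62, adjusted p = 0.00549), Sst by 2.36 (SE 0.50, adjusted p = 0.00769) and Ppy by 2.31 (SE 0.43, adjusted p = 0.00349). Pyy differed by 1.52 (SE 0.50, adjusted p = 0.067) and Gast by 0.01 (SE 0.50, adjusted p = 0.99), and neither passed. So 3 of 6 members passed, where 9.73% of all genes did. Ghrl (adjusted p = 0.0444) is not counted among them, because it passed the filter on mean level only through 2 Pdx-cre libraries: its mean was 6.24 FPKM over all 15 and 0.219 FPKM over the other 13. The calls for Gcg, Sst and Ppy held under every alternative and with any library left out (adjusted p = 0.000720 to 0.036). In a bulk sample, fewer cells of a type and less RNA per cell cannot be told apart.

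Split by sort, a setting chosen after the data were seen, the difference between drivers was called in ALDH- and not in ALDH+ cells. In ALDH- cells Gcg was higher by 4.69 (SE 0.67, adjusted p = 0.00217), or 25.7-fold, Sst by 3.92 (SE 0.40, adjusted p = 0.000199), or 15.1-fold, and Ppy by 3.15 (SE 0.52, adjusted p = 0.00659), or 8.86-fold. Pyy was higher by 2.47 (SE 0.62, adjusted p = 0.0536). This made 3 of 6 members, Ghrl again not counted (2.19% of all genes passed), and the call for Ppy was lost without control ALDH- replicate 3, the library with the most of all 4 hormones (2.83, adjusted p = 0.0619). In ALDH+ cells 0 of 7 members passed (1.55% of all genes, with 1771 at an unadjusted p under 0.05), with 1.41 for Gcg (adjusted p = 0.351), 0.64 for Sst (0.506), 1.40 for Ppy (0.225) and 0.48 for Pyy (0.787).

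Split by driver, likewise after the data were seen, 1 hormone gene was called between ALDH+ and ALDH- cells in Pdx-cre libraries and none in Rip-cre libraries, in a model of all 15 libraries. In Pdx-cre libraries Sst fell by 2.80 (SE 0.46, adjusted p = 0.0461), and Gcg (-4.06, SE 0.77, adjusted p = 0.0553), Ppy (-3.13, SE 0.60, adjusted p = 0.0585) and Pyy (-3.24, SE 0.71, adjusted p = 0.123) missed the threshold. That was 1 of 7 members, where 0.142% of all genes passed, and the call for Sst was lost on leaving out any of 12 of the 15 libraries (adjusted p = 0.0513 to 0.176). The δ cell marker Rbp4 fell with it, by 2.85 (SE 0.49, adjusted p = 0.0474), a call lost in 12 of 15 such fits (adjusted p = 0.0555 to 0.176), and Hhex was at -1.52 (adjusted p = 0.467). The summed level of 4 δ cell markers was 199 to 402 FPKM in Pdx-cre ALDH- and 18.3 to 117 FPKM in Pdx-cre ALDH+ libraries. Most of this sum was Rbp4 (188.5 to 382.8 and 15.75 to 107.3 FPKM), so it does not stand apart from Rbp4. Its part in the Sst value was not tested. In Rip-cre libraries 0 of 7 members passed (1.54% of all genes, with 1758 at an unadjusted p under 0.05). There Ppy differed by -1.38 (SE 0.51, adjusted p = 0.198), Pyy by -1.26 (SE 0.60, adjusted p = 0.329), Gcg by -0.79 (SE 0.65, adjusted p = 0.625) and Sst by 0.48 in the other direction (SE 0.39, adjusted p = 0.620). The calls changed when each driver was fitted alone: in a fit of the 9 Rip-cre libraries Ppy fell by 1.76 (adjusted p = 0.0268), 1 of 6 members tested beside 1.4% of all genes, and in a fit of the 6 Pdx-cre libraries 0 of 7 members and 0.0354% of all genes passed, with -2.91 for Ppy (adjusted p = 0.472).

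The difference between drivers was itself tested as a cre by ALDH interaction, and 0 of 7 members and 0% of all genes passed, with 511 genes at an unadjusted p under 0.05. Sst had the third smallest p of the 11253 genes (interaction -3.28, SE 0.58, unadjusted p = 4.61e-05, adjusted p = 0.145). The values for Gcg (-3.28, SE 0.97), Ppy (-1.75, SE 0.76) and Pyy (-1.98, SE 0.90) had adjusted p = 0.993, 0.994 and 0.994. The drivers were therefore not shown to differ in the ALDH contrast of any hormone gene after adjustment. Without control ALDH- replicate 3 the interaction was called for Ghrl (adjusted p = 0.00555), and for no other hormone gene. This call is not counted as a result. Ghrl passed the filter on mean level only through the 2 Pdx-cre ALDH- libraries that then remained. Its mean was 0.219 FPKM over the 13 libraries other than these.

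**Figure D2:**
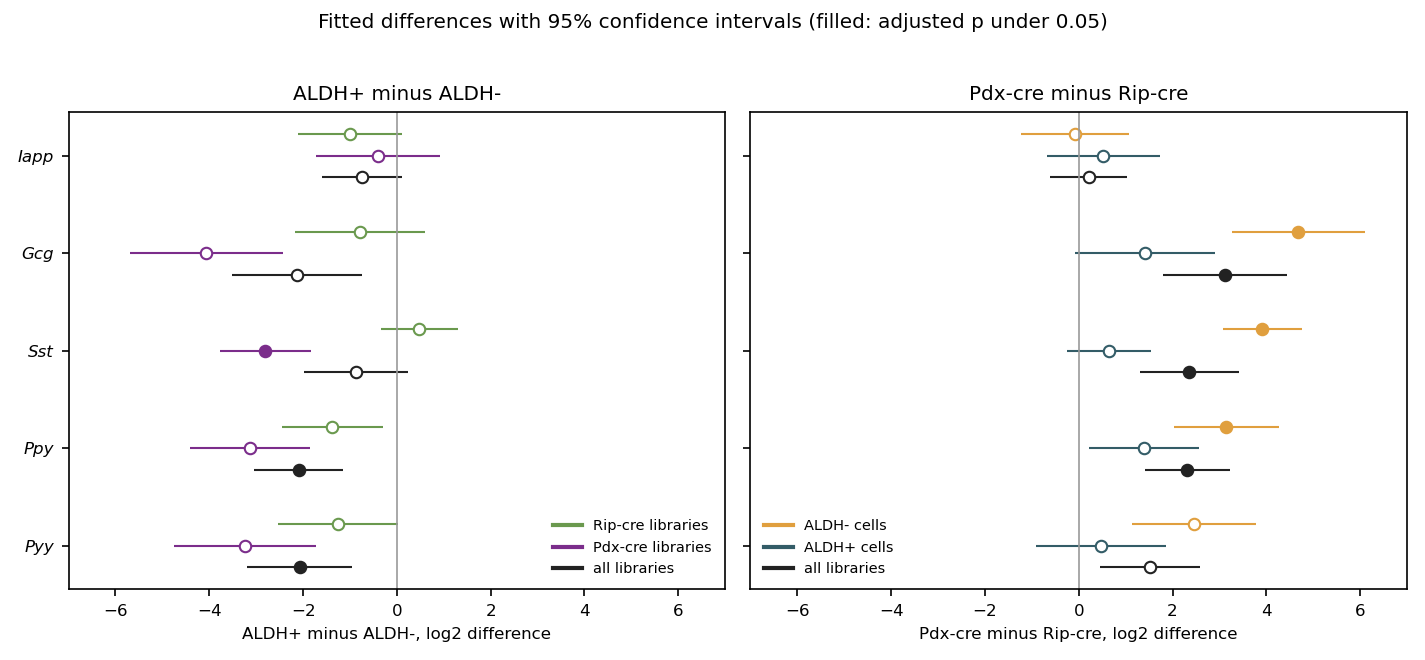
Fitted log2 differences of Iapp, Gcg, Sst, Ppy and Pyy between ALDH+ and ALDH- cells (left) and between Pdx-cre and Rip-cre libraries (right), with 95% confidence intervals. Filled points had an adjusted p under 0.05 over all 11253 genes. Ppy and Pyy were lower in ALDH+ cells over all libraries, and Gcg, Sst and Ppy were higher in Pdx-cre libraries, with the widest differences in ALDH- cells.

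Foxo genotype moved none of the hormones past the threshold. In ALDH- cells 0 of 7 members passed (0.0178% of all genes, 650 at an unadjusted p under 0.05), with Ppy at -1.66 in knockout against control cells (SE 0.59, unadjusted p = 0.0126, adjusted p = 0.787), Pyy at -1.18 (adjusted p = 0.913), Gcg at -0.52 (adjusted p = 0.978), Sst at 0.03 (adjusted p = 0.997) and Iapp at -0.04 (adjusted p = 0.997). In ALDH+ cells 0 of 7 passed and 0% of all genes did (744 at an unadjusted p under 0.05). Ppy was there at -1.76 (SE 0.68, unadjusted p = 0.019, adjusted p = 0.672), Gcg at -1.54 (adjusted p = 0.857), Pyy at -1.11 (adjusted p = 0.883), Sst at -0.76 (adjusted p = 0.929) and Iapp at 0.78 (adjusted p = 0.899). With 2 to 5 libraries a group the intervals were wide, from -3.20 to -0.33 for Ppy in ALDH+ cells.

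A ratio within a library does not depend on how libraries are scaled, so the 4 hormones were also set against Iapp. In the 9 Rip-cre libraries Gcg was at 0.158% to 1.04% of the Iapp FPKM, Sst at 0.329% to 3.05%, Ppy at 0.1% to 0.734% and Pyy at 0.281% to 1.41%. The 4 together came to 1.06% to 5.11% of Iapp. In the Pdx-cre ALDH- libraries they came to 82.5% in control replicate 3, 38.4% in knockout replicate 4 and 18.2% in knockout replicate 5, and in the Pdx-cre ALDH+ libraries to 19% in control replicate 2, 1.53% in knockout replicate 4 and 2.43% in knockout replicate 5. The knockout Pdx-cre ALDH+ libraries were thus within the range of the Rip-cre libraries, and the control one was not. The top of the Rip-cre range came from control ALDH+ replicate 1 (5.11%) and knockout ALDH+ replicate 3 (4.55%). Iapp was lowest in these libraries, at 33196 and 42521 FPKM, and a low Iapp raises each percent.

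The log2 ratio of Ppy to Iapp was lower in the 7 ALDH+ than in the 8 ALDH- libraries by 1.58 (two-sided exact permutation test within genotype and cre driver, p = 0.00417), and that of Pyy by 1.52 (exact permutation p = 0.025). For Gcg the difference was -1.66 (exact permutation p = 0.0778) and for Sst -0.34 (exact permutation p = 0.644). These were 4 tests, and the p-values are not adjusted for that number. Within Rip-cre libraries the difference was -0.88 for Ppy (exact permutation p = 0.05), -0.65 for Pyy (p = 0.233), -0.36 for Gcg (p = 0.683) and 1.04 for Sst (p = 0.25). Within Pdx-cre libraries it was -2.90, -2.98, -3.99 and -2.69 (exact permutation p = 0.167 for each, where 12 arrangements allow no p below 0.0833). In the limma fit for Rip-cre cells, Iapp itself was lower in ALDH+ cells by 0.995 (SE 0.523, adjusted p = 0.386) and Sst higher by 0.475. The Rip-cre ratio of Sst thus carries the Iapp difference too. Control ALDH- replicate 3 weighed on the ratios: without it the difference was -1.06 for Ppy (exact permutation p = 0.164) and -1.11 for Pyy (p = 0.147). The Ppy ratio also lost its call without knockout ALDH+ replicate 1 (-1.47, exact permutation p = 0.0528) or replicate 2 (-1.32, p = 0.0694), and the Pyy ratio without replicate 2 (-1.36, p = 0.0778).

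**Figure D3:**
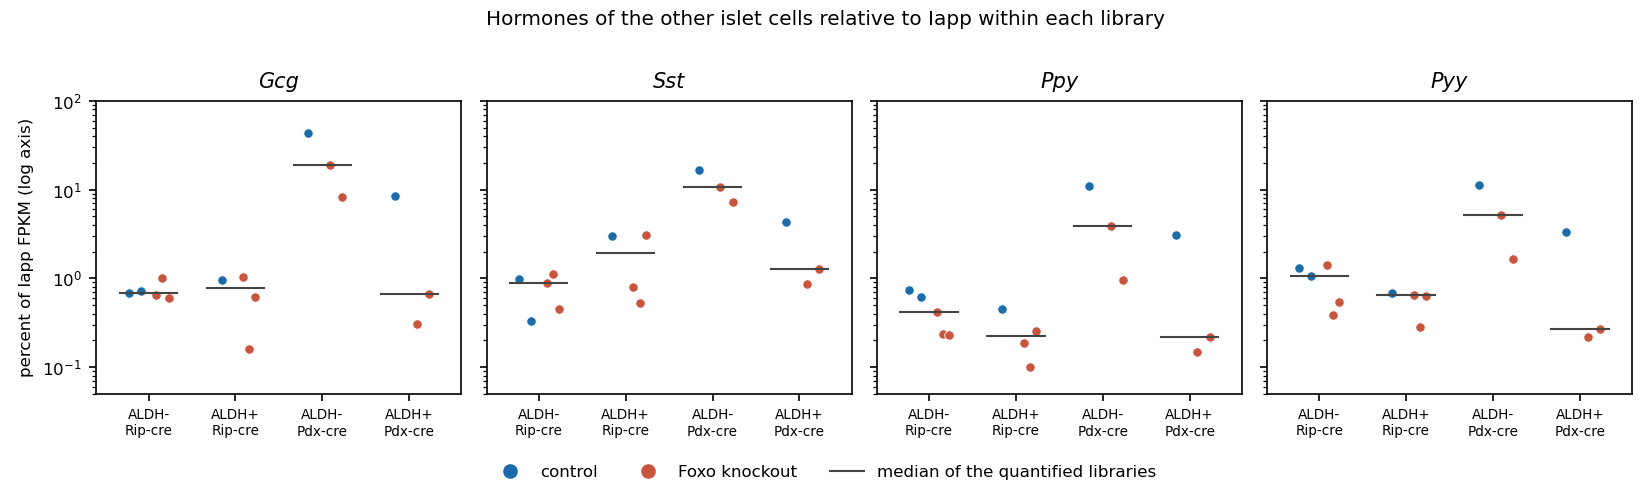
Gcg, Sst, Ppy and Pyy as a percent of the Iapp FPKM of the same library, on a log axis, with 1 dot per library (blue control, red Foxo knockout) and lines at the median. Sst was at 7.21% to 16.6% of Iapp in the 3 Pdx-cre ALDH- libraries, above all other libraries, and Gcg at 8.34% to 43.7%, with the control Pdx-cre ALDH+ library at 8.37%. In Rip-cre libraries the 4 hormones stayed between 0.1% and 3.05%.

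Ghrl (chromosome 6, 113666112 to 113669874) had few fragments outside of a pair of libraries. It was at 42.2 and 47.7 FPKM, from 140 and 153 fragments, in knockout ALDH- replicates 4 and 5, the Pdx-cre libraries of that group. It was at 1.97 FPKM (6 fragments) in control ALDH+ replicate 2, at 0.280 to 0.304 FPKM (1 fragment each) in knockout ALDH+ replicates 2, 4 and 5, and listed at 0 in the other 9 libraries. Control ALDH- replicate 3, which had the most Gcg, Sst, Ppy and Pyy of all libraries, was among those listed at 0. The Pdx-cre call for Ghrl was lost on leaving out any of 10 of the 15 libraries (adjusted p = 0.0514 to 0.129), and no fold is given against libraries at 0.

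Gast (chromosome 11, 100195725 to 100198310) was at the limit of detection. It was at 6.19, 4.92 and 4.41 FPKM in the control ALDH- libraries, from 18, 15 and 10 fragments, and at 0.376, 7.50, 4.32, 5.43 and 0 FPKM in knockout ALDH- replicates 1 to 5. In ALDH+ cells it was listed at 0 in control replicate 1 and at 2.97 FPKM in replicate 2, and at 2.38, 0.363, 0, 0 and 1.54 FPKM in the knockout, from at most 7 fragments. No comparison called it.

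FPKM is a level per length of transcript, so the genes can be ranked. By mean log2 level over the 15 libraries the order was Iapp (16.37, SD 0.53), Sst (10.51, SD 1.61), Gcg (10.25, SD 2.37), Pyy (9.68, SD 1.73), Ppy (8.84, SD 1.99), Gast (1.47) and Ghrl (0.92), with Ins2 above Iapp in each of the 12 libraries that quantified it. From Sst to Ppy each neighbour in this order differed by less than the spread over libraries. The order differed between groups of libraries. By median FPKM it was Gcg (17334), Sst (9792), Pyy (4841) and Ppy (3608) in Pdx-cre ALDH- cells, and Pyy (1317), Sst (909), Gcg (720.2) and Ppy (423) in Rip-cre ALDH- cells. In ALDH+ cells of either driver it was Sst, Gcg, Pyy and Ppy, with Sst at 1156 FPKM in Pdx-cre and 891 FPKM in Rip-cre libraries.

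Gcg, Sst, Ppy and Pyy followed each other across the 15 libraries, with Pearson r on log2 levels of 0.965 between Ppy and Pyy, 0.936 between Gcg and Ppy, 0.900 between Gcg and Sst and 0.737 between Sst and Pyy. Their correlation with Iapp was between -0.004 for Sst and 0.36 for Pyy. Among all other genes, the closest to Gcg was Cd24a, a cell surface glycoprotein (r = 0.953). Rbp4, a retinol carrier made by δ cells, was next (r = 0.944). Rbp4 was also the closest gene to Sst (r = 0.956), with Gap43 after it. Cd24a came after Pyy and Gcg for Ppy (r = 0.919), and Ebp, an enzyme of sterol synthesis, after Ppy and Gcg for Pyy. For Ghrl the closest genes were Jup, Dapk3 and Crip2, and for Gast N6amt2, Alg1 and Tsen15. The 4 highest values of each of Gcg, Sst, Ppy and Pyy were in Pdx-cre libraries.

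Some markers of the cells that make these hormones were also higher in Pdx-cre libraries, but they did not follow their own hormone alone. Over the 15 libraries Gcg correlated with the α cell marker Irx2 at r = 0.778. Its correlation with the δ cell markers Rbp4 and Hhex was higher, at r = 0.944 and 0.804. Rbp4 also followed Ppy (r = 0.896) and Pyy (r = 0.878). Of the 6 non-hormone α cell markers 2 could be tested, and both were called higher in Pdx-cre libraries, where 9.73% of all genes were called. Among them Irx2 was higher by 1.20 (SE 0.30, adjusted p = 0.0204). The sum of the 6 was 13.8 to 28.3 FPKM in Pdx-cre ALDH- libraries, against 2.26 to 6.52 FPKM in Rip-cre ALDH- libraries and 8 to 8.94 FPKM in Pdx-cre ALDH+ libraries. Of the 4 δ cell markers 2 could be tested. Rbp4 was higher in Pdx-cre libraries by 1.90 (SE 0.48, adjusted p = 0.0202), while Hhex, a transcription factor of δ cells, was at 9.81 to 15.4 FPKM in the Pdx-cre ALDH- libraries and missed the threshold (1.28, SE 0.55, adjusted p = 0.154). The δ cell sum, most of it Rbp4, was 199 to 402 FPKM in Pdx-cre ALDH- and 17 to 41.2 FPKM in Rip-cre ALDH- libraries. In ALDH+ cells it was 18.3 to 117 FPKM with Pdx-cre and 14.6 to 36.4 FPKM with Rip-cre. The call for Irx2 was lost in 2 of the 14 fits with a library left out that still tested it (adjusted p = 0.0578 to 0.0617), and that for Rbp4 in 4 of 15 (adjusted p = 0.0526 to 0.0827). In the comparison of ALDH+ with ALDH- cells over both drivers neither list had a called gene (Irx2 -0.77, adjusted p = 0.178, and Rbp4 -1.12, adjusted p = 0.217), and the part of these cells in the hormone values was not tested.

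**Figure D4:**
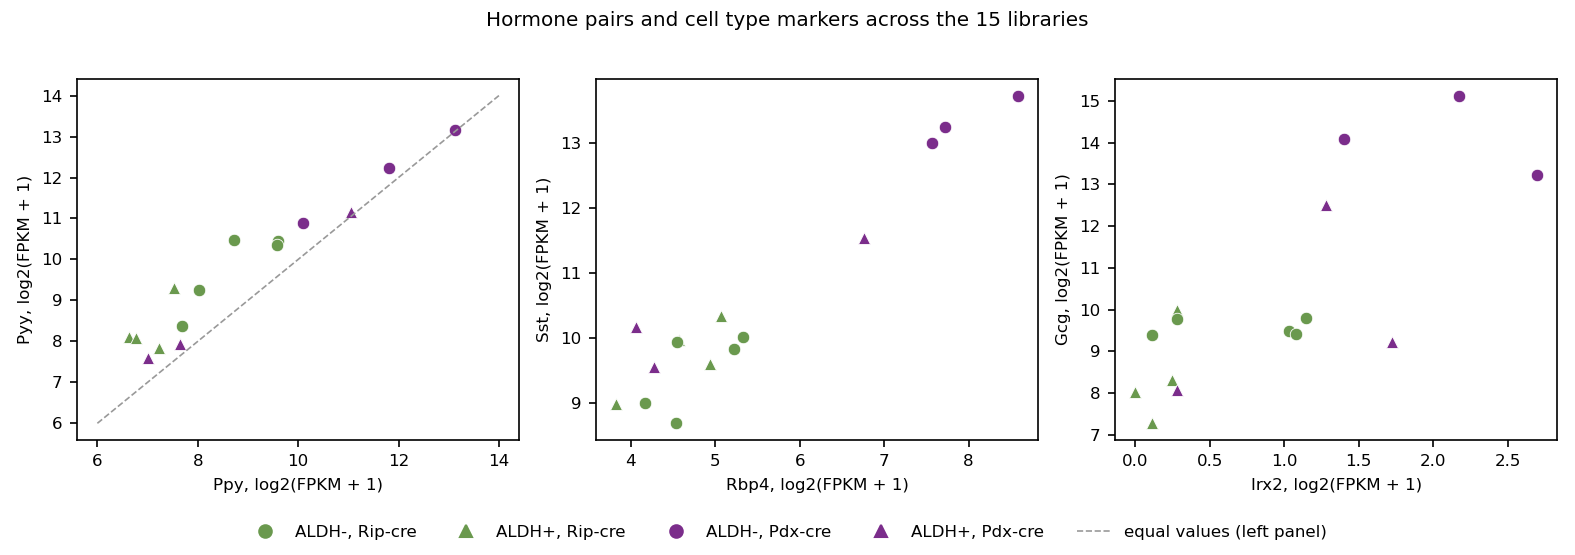
Log2(FPKM + 1) of Pyy against Ppy, of Sst against the δ cell marker Rbp4 and of Gcg against the α cell marker Irx2, with 1 point per library (circles ALDH-, triangles ALDH+, green Rip-cre, purple Pdx-cre) and a dashed line at equal values in the left panel. All 15 points lie above that line. The 3 Pdx-cre ALDH- libraries and the control Pdx-cre ALDH+ library lie at the upper right of the first 2 panels. Rbp4 also correlated with Gcg (r = 0.944), more closely than Irx2 did (r = 0.778).

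Markers of β cells went the other way with the cre driver, a comparison in which 9.73% of all genes were called. Of 7 non-hormone β cell markers 6 were lower in Pdx-cre libraries, among them Slc2a2, the glucose transporter of rodent β cells, by -2.87 (SE 0.24, adjusted p = 3.38e-06), Nkx6-1 by -1.02 (SE 0.12, adjusted p = 0.000102) and the granule zinc transporter Slc30a8 by -1.66 (SE 0.23, adjusted p = 0.000328). None of the 7 was called between ALDH+ and ALDH- cells (Nkx6-1 0.24, adjusted p = 0.295, G6pc2 -0.33, adjusted p = 0.556). Iapp differed by 0.21 between the drivers, with a 95% confidence interval from -0.61 to 1.02.

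Transcripts of cells from outside the islet were also higher in some Pdx-cre libraries. The sum of 11 acinar enzymes was 0.189 to 9.27 FPKM in the Rip-cre libraries, 30.2 to 403 FPKM in Pdx-cre ALDH- and 3.05 to 1488 FPKM in Pdx-cre ALDH+ libraries, so it did not order the libraries as Gcg and Sst did. Cela1 (2.54, adjusted p = 0.0207) and Ctrb1 (4.83, adjusted p = 0.0269) were among those called with the cre driver, each in 11 of 15 fits with a library left out, and none of 10 was called with the ALDH sort (Cela2a 1.32, adjusted p = 0.252, Prss2 1.26, adjusted p = 0.258, Cpa1 1.21, adjusted p = 0.372). Among duct markers Krt19 was called in Pdx-cre libraries (1.90, adjusted p = 0.0204, lost in 3 of 15 such fits), while Spp1 was not (0.46, adjusted p = 0.471). Neither was called with the ALDH sort (adjusted p = 0.514 to 0.810 over the duct markers tested). The macrophage antigens Cd68 (1.46, adjusted p = 0.00146) and Cd74 (1.8, adjusted p = 0.0041) were called with the cre driver and not with the sort (Cd74 -0.85, adjusted p = 0.186, Cd68 -0.24, adjusted p = 0.649), while the pan-leukocyte gene Ptprc was at 0 to 0.0214 FPKM. Esam, the endothelial gene tested, was not called (0.03, adjusted p = 0.967 with the driver, and -0.13, adjusted p = 0.854 with the sort), and the sum of the stromal markers was 0 to 0.736 FPKM. The part of these cells in the hormone values was not tested.

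Of 26 other peptide hormone and neuropeptide genes 11 could be tested, and 1 was called with the ALDH sort. Adm2, or intermedin, a calcitonin family peptide, was at 8.38 to 29.4 FPKM in ALDH- and 3.93 to 19.9 FPKM in ALDH+ libraries and was lower in ALDH+ cells by 0.90 (SE 0.22, adjusted p = 0.0261). This 1 of 11 stood beside 5.98% of all genes, and the call was lost in 4 of the 15 fits with a library left out, among them that without control ALDH+ replicate 1 (adjusted p = 0.177). Cck, the cholecystokinin gene, was at 0 to 7.77 FPKM in ALDH- and at 0 to 15.3 FPKM in ALDH+ libraries (1.59, adjusted p = 0.109). Npy, the third gene of the pancreatic polypeptide family, was at 5.28 to 195 FPKM in ALDH- and 0 to 146 FPKM in ALDH+ libraries, a difference of -2.06 that was as large as those of Ppy and Pyy and had an SE of 0.92 (adjusted p = 0.212). With the cre driver 4 were called higher, led by the opioid precursors Penk (2.25, SE 0.34, adjusted p = 0.000985) and Pdyn (1.48, adjusted p = 0.00823) and by Cartpt (2.42, adjusted p = 0.0052), with Adm2 (0.97, adjusted p = 0.00896), and 1 lower, Ucn3, the urocortin of mature β cells (-1.70, SE 0.25, adjusted p = 0.000817). These calls stood beside 9.73% of all genes. The median difference of the 11 genes was 0.54, beside -0.01 over all genes.

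Of 14 genes for the prohormone processing enzymes and granule proteins that turn precursors into hormones, 1 was called with the ALDH sort: Pcsk1n, which encodes proSAAS, an inhibitor of prohormone convertase 1, lower in ALDH+ cells by 0.65 (SE 0.14, adjusted p = 0.0136). That share was near the 5.98% of all genes, and the call was lost without control ALDH+ replicate 1 (-0.68, adjusted p = 0.118) and in 1 other such fit (adjusted p = 0.0525). It was at 44.1 to 103 FPKM in ALDH- and at 40 to 53.2 FPKM in ALDH+ libraries. Pam, which amidates peptides such as pancreatic polypeptide and amylin, was at -0.44 (adjusted p = 0.0735) and Scg5, the chaperone of prohormone convertase 2, at -0.40 (adjusted p = 0.0868). With the cre driver Pam (0.95, adjusted p = 0.000389) and Chgb, a granin (0.85, adjusted p = 0.00858), were higher and Slc30a8 lower. The median of the list was -0.15 with the sort and 0.06 with the driver.

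Of 16 tested transcription factors that act on hormone genes, none was called with the ALDH sort. The 3 with the smallest p were higher in ALDH+ cells, Pax6 by 0.39 (adjusted p = 0.0637), Neurod1 by 0.39 (adjusted p = 0.0857) and Rfx6 by 0.46 (adjusted p = 0.088), all of them needed for endocrine cell formation. With the cre driver Irx2 was among those higher, and Nkx6-1, Pdx1 (-0.98, SE 0.19, adjusted p = 0.00464) and, named here after its value was seen, Mafa (-1.24, SE 0.32, adjusted p = 0.0227, lost in 2 of 15 fits with a library left out) were lower. Of 6 hormone receptors tested none was called with the sort, with the incretin receptor Gipr at 0.97 (adjusted p = 0.0683), Ramp2, a partner of the calcitonin receptor family, at -0.81 (adjusted p = 0.117), and the glucagon receptor Gcgr at 0.65 (adjusted p = 0.211). Gcgr (-2.07, SE 0.27, adjusted p = 0.000267) and the GLP-1 receptor Glp1r (-0.99, SE 0.15, adjusted p = 0.0011) were lower in Pdx-cre libraries, where Gcg was higher, and the somatostatin receptor Sstr3 did not pass (0.36, adjusted p = 0.154).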

How the data were processed

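Per the labels, RFP+ islet cells were sorted, their mRNA was selected by poly-A and libraries were made with a TruSeq kit. The submitters' processing notes name bcl2fastq 1.8.4, TopHat2 2.0.4 and the mm9 build, while the quantifier's version and the annotation are not given in the sources used here. The authors deposited 1 table per library of FPKM with confidence bounds and a status, in the column layout of Cufflinks. Fragments were computed from the distance of the upper bound to the value, read as 2 Poisson standard errors. Of the results below 500 fragments, 66.2% came within 0.02 of a whole fragment, so depths are approximate. Left out were 248 symbols with several lines, and 63 lines with status FAIL or HIDATA in at least 1 library, and 22924 genes remained.

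FPKM were rescaled by trimmed means of M-values (trimming 30% by M and 5% by A). The log2(FPKM + 1), a scale that understates the change of low genes, entered limma 3.58.1 (R 4.3.3), with trended prior variance, 4 groups and the cre driver over all 15 libraries. The 11253 genes with a mean of at least 1 were tested, two-sided, with Benjamini-Hochberg adjustment and a threshold of 0.05. Exact permutation tests permuted the ALDH labels within genotype and cre driver (720 arrangements). The scripts were tested on simulated data. The study's own count-based test could not be repeated on FPKM. All 8 members, up to 3 genes of each list with the smallest p by sort and by driver, and the 3 genes most like each member are named. Members and lists were chosen with earlier results of these data known. Replicate numbers do not pair the libraries by the labels, and the correlation of same-numbered deviations was 0.037 to 0.207. Alternatives were no rescaling, median ratio scaling, a pseudocount of 0.1, no filter, no trend, no cre driver, single drivers, only the groups compared, a replicate block and each library left out. Libraries of a group correlated at r = 0.846 to 0.958.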

Additional observations from a re-analysis of the deposited data

Results flagged for a closer look

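Iapp was at 42520.5 FPKM in knockout ALDH+ replicate 3, far below the other 4 libraries of its group. On the log2(FPKM + 1) scale the gap to the nearest of them was 0.869 of the group's range, above the critical value of 0.71 for 5 libraries. The measure applies to groups of 4 to 10 libraries, so only the 2 knockout groups were examined for the 8 hormone genes. This was 1 of 16 such combinations of gene and group, and chance flags about 1 in 20. The control groups, in which replicate 3 of ALDH- cells was far above the other 2 for Gcg, Sst, Ppy and Pyy, were too small for it. Ins2 in the same library was at 318033 FPKM, within the range of its group.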

How the results depend on the processing

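The counts of members called in comparisons of genotype and of the cre driver (Ghrl included) stayed within 1.5 times their value under every alternative run. For ALDH+ against ALDH- cells, averaged over genotypes, 2 members were called, against 1 with no filter, with no trend or in Rip-cre libraries only, and 0 without the cre driver in the model, in Pdx-cre libraries only or with a replicate block on equal numbers, and leaving out single libraries gave 0 to 3. Over all genes the replicate block on equal numbers took the calls from 673 to 22, while a replicate block within the cre driver left 262. In control cells 3 members were called in place of 0 when only the 2 groups compared were fitted (3.96% of all genes, against 1.22%). In knockout cells the fit of Pdx-cre libraries only called Ghrl and no other member (0.062% of all genes). This call is not counted as a result. Ghrl passed the filter only through 2 libraries, both on the ALDH- side of that comparison (42.2 and 47.7 FPKM). The cre by ALDH interaction had 0 to 1 members called with single libraries left out, and the 1 was Ghrl, which is not counted for the same reason. The Ins2 rank difference was -1.89 with the unquantified libraries left out, and -4.29 (exact permutation p = 0.0802) with labels permuted within genotype alone. The Ppy to Iapp ratio stayed at -1.58 but did not pass with those strata (exact permutation p = 0.0734), was -0.88 in Rip-cre and -2.90 in Pdx-cre libraries, and -2.14 to -1.06 with single libraries left out. For Pyy to Iapp these were -0.65, -2.98 and -1.95 to -1.11, and for Sst to Iapp, which no setting called, the sign turned in Rip-cre libraries (1.04) and on leaving out control ALDH- replicate 3 (0.101) or knockout ALDH- replicate 4 (0.00738), with a range of -0.71 to 0.101. The cause of these changes was not tested. Depth did not limit Iapp, Gcg, Sst, Ppy and Pyy, which rested on at least 267 fragments in every library, but Ghrl and Gast had at most 19 fragments outside of 2 libraries.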
